A study of Mus musculus with 24 samples.

Results

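C2C12 myoblasts that had been kept in suspension and then allowed to reattach for 2 h were compared with the same cells growing attached to the dish. The comparison uses 6 of the 24 arrays of the series, the 3 replated and the 3 proliferating arrays whose titles name control cells. C2C12 is an established mouse skeletal myoblast line, and all 6 arrays come from cells that received the control siRNA. Proliferating cells grew attached in DMEM with 20% FBS, and replated cells were held in suspension in that medium before they were put back on a surface. How long they were in suspension and the siRNA sequence are not given in the sources used here. Further groups of the series are control cells still in suspension, called quiescent below, control cells after 48 h in medium with 2% horse serum, and the same 4 states after siRNA against Ift88, labelled IFT88KD, so that 8 groups have 3 arrays each. Ift88 encodes a subunit of the intraflagellar transport machinery that builds the primary cilium.

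Anchorage-dependent myoblasts that lose contact with a surface leave the cell cycle in a reversible way, with the myogenic programme held back. Contact with a surface lets them re-enter the cycle, and genes that answer growth factors and adhesion without new protein synthesis, the immediate early genes, come on before DNA synthesis starts. Between these events cells rebuild the actin cytoskeleton, make ribosomes and pass through G1, where D and E cyclins and E2F factors act. Genes of DNA replication and of mitosis come on later.

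Values are log2 signals after quantile normalisation, so a difference of 1 is a factor of 2. Of 12393 genes measured, 8597 passed the filter on low values. The deposited values of the replated arrays lay lower as a whole, with a median of 2.96 over all probe sets against 3.60 on the proliferating arrays. The median change of the 8597 genes was 0.01 after quantile normalisation, -0.43 on the deposited values and 0.21 after centring each array on its median, and changes below are on the first of these scales. The Actb probe sets at the 3' end of the transcript exceeded those at the 5' end by 1.27 to 1.90 on the replated arrays and by 0.56 to 0.89 on the proliferating ones, and the part of this difference in the results was not tested. Nothing in the labels says that the 3 replicates of a group are separate cultures, so p-values measure only the spread between arrays, which may be technical. For each gene that spread, and the SE, was taken from all 24 arrays of the 8 groups, so it includes groups outside the comparison. In bulk RNA, fewer cells of a type and less RNA per cell cannot be told apart.

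All 7 myoblast markers measured were detected, and their summed signal was 10.14 to 10.80 on the proliferating arrays and 9.94 to 10.20 on the replated ones. Markers of other cell types were also read. Of 10 macrophage markers, 6 lay under the 40th percentile on all 6 arrays, among them Adgre1, Ptprc and Itgam, which define that cell type. All 4 that passed the filter were higher in replated cells, and the summed signal of the list rose from 5.29 to 5.55 to a range of 7.42 to 7.54. Of these 4, 2 were under that percentile on all 3 proliferating arrays and passed only through other groups. Of 7 fibroblast markers measured, 5 passed the filter and 4 were higher, with Dpt and Thy1 under that percentile and a summed signal of 5.86 to 6.62 in proliferating and 7.74 to 7.84 in replated cells. Here too 2 of the 5 were under it on all proliferating arrays. Of 6 adipocyte markers, 4 passed the filter and all were higher, led by Lpl, with Adipoq and Fabp4 under the percentile and a summed signal of 5.51 to 6.02 against 8.71 to 8.94. All 8 endothelial markers were under it on every array. The part of these markers in the results was not tested.

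Replated cells differed from proliferating cells in most of the genes measured. Genes of mitosis and of DNA replication and the enzymes of sterol synthesis were lower, while cytokines, chemokines, immediate early genes, hypoxia genes, collagen VI and lysosomal enzymes were higher. At an adjusted p under 0.05 in limma, 6531 genes differed, 76% of those tested, with 3258 higher (37.9%) and 3273 lower (38.1%). Of these, 1459 were higher by 1 log2 or more (17%) and 1416 were lower by as much (16.5%). On the deposited values 2020 genes were higher and 4721 lower, and after centring each array on its median 4023 were higher and 2611 lower. A change of 2 log2 or more was reached by 429 genes upwards and by 409 downwards. The 3 replated and the 3 proliferating values of a gene did not overlap in 6522 genes, or 75.9%. The sign was the same on all 3 scalings for every gene that changed by 1 log2 or more, and for 2815 of the higher and 3141 of the lower genes overall. The median change on the 3 scalings lay between -0.43 and 0.21, so agreement for changes of 1 log2 or more was largely set in advance.

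Il6, a cytokine that myoblasts secrete and that acts through gp130, rose the most. It read 1.19, 1.30 and 1.33 on the proliferating arrays and 9.06, 9.51 and 9.93 on the replated arrays. The proliferating values lay at the bottom of the array's range and far under the replated ones, and the change was 8.23 (SE 0.59, adjusted p = 6.24e-11). Rgs5, a regulator of G-protein signalling, went from 1.33, 1.47 and 1.31 to 9.62, 9.19 and 9.76, and the chemokine Cxcl1 from 2.54, 2.61 and 2.30 to 9.81, 10.51 and 10.86. In both genes the groups were well apart. Among the other 12 of the 15 largest rises were Car9, the hypoxia-induced carbonic anhydrase (7.18), the proteoglycan decorin gene Dcn (7.0), the chemokine Cxcl5 (6.79), the lipid carrier Apoe (6.63), the protease inhibitor Slpi (6.59), the matrix protein Tgfbi (6.18) and the NADPH oxidase subunit Ncf4 (6.07). The rest were 2610528A11Rik (6.31), Col6a1 (5.49), the cholesterol exporter Abca1 (5.31), Fbln7 (5.24) and the copper protein Cp (5.21). For 10 of these 15 genes all 3 proliferating arrays were under the 40th percentile, so their rise starts from the range of dim signals.

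**Figure D1:**
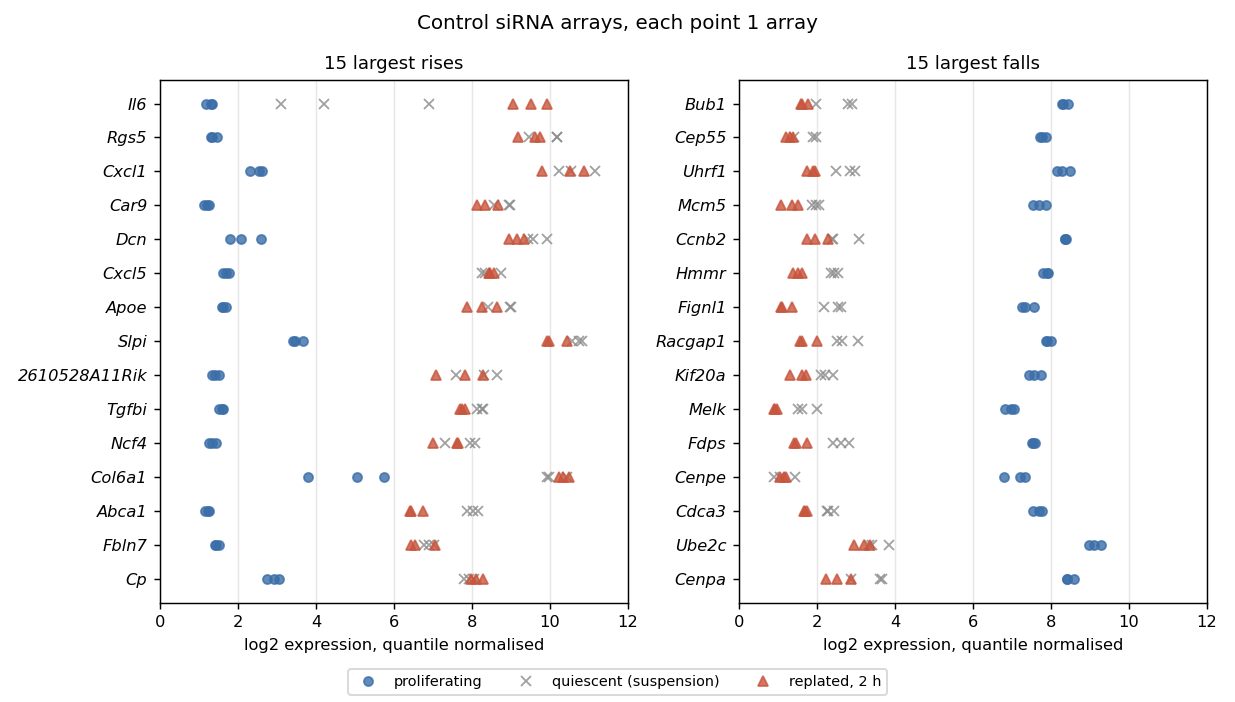
Log2 signal after quantile normalisation (x axis) of the 15 genes with the largest rises and the 15 with the largest falls (y axis), 1 point per array for the proliferating, quiescent and replated control cells. Replated points of Il6 lie between 9.06 and 9.93 against 1.19 to 1.33 in proliferating cells, and those of Bub1 between 1.59 and 1.77 against 8.28 to 8.43.

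Bub1, a kinase of the spindle checkpoint, fell the most. It read 8.43, 8.28 and 8.31 in proliferating cells and 1.77, 1.59 and 1.61 in replated cells, and the fall was by 6.68 (SE 0.21, adjusted p = 8.95e-17). Of the 15 largest falls, 14 are genes with roles in mitosis, cytokinesis, replication or DNA repair and the remaining one is Fdps, which makes farnesyl diphosphate for sterols and prenylated proteins. In 13 of the 15 all 3 replated arrays were under the 40th percentile, so the size of the fall is limited by the lowest signals of the array. Over all genes, 226 of the 1416 that fell by 1 log2 or more and 247 of the 1459 that rose as much had 1 group wholly under that level.

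**Figure D2:**
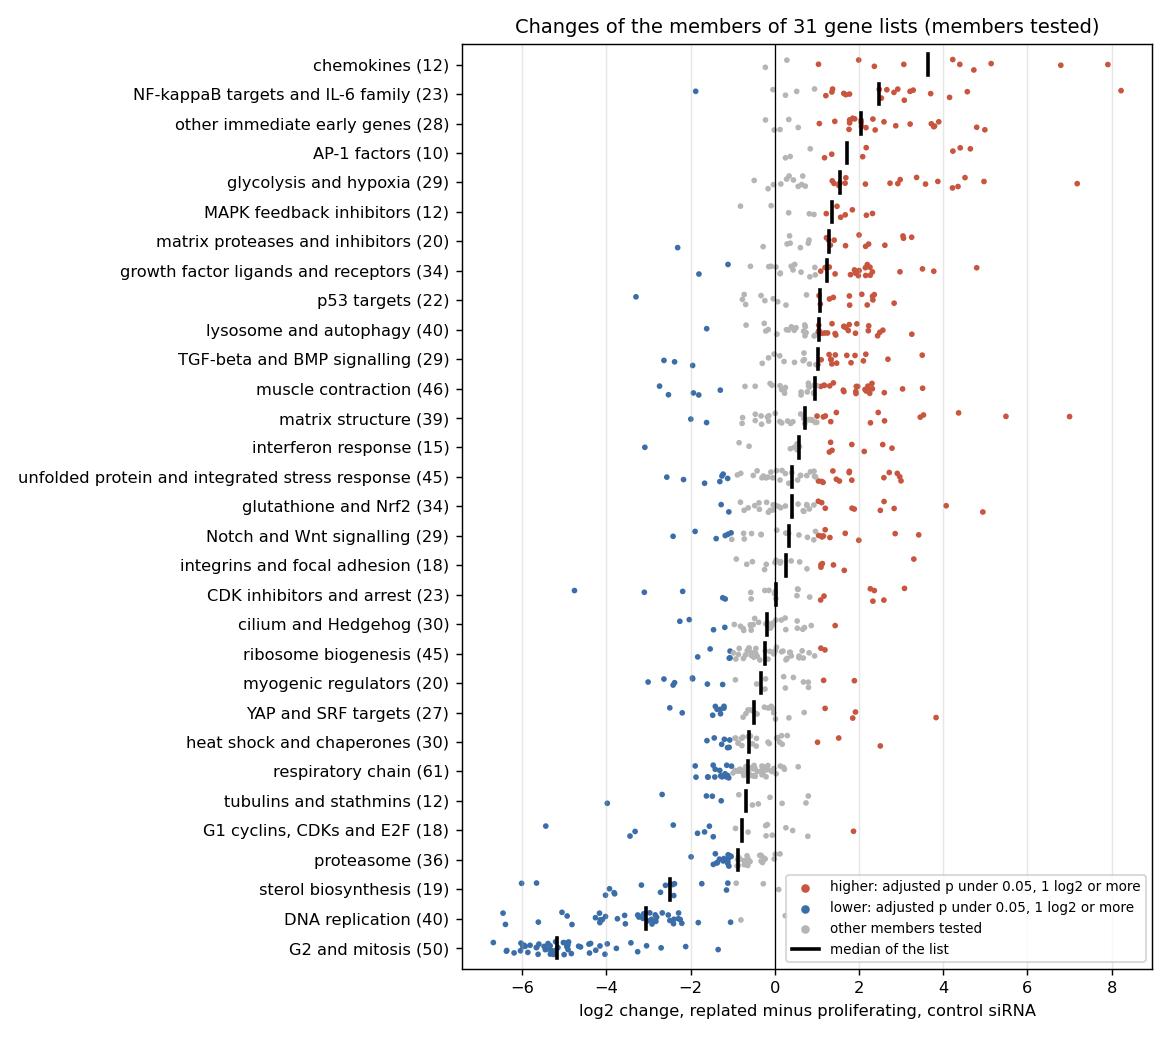
Change from proliferating to replated control cells (x axis, log2) of every tested member of 31 gene lists (y axis). Each point is a gene, red or blue where it was called higher or lower by 1 log2 or more and grey otherwise, and the black bar is the median of the list. The median was -5.18 for the list of G2 and mitosis and 3.65 for the chemokines, against 0.01 over all genes.

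The mitotic genes were all lower. Of 53 genes listed for G2 and mitosis, 50 were measured, all 50 passed the filter and all 50 fell by 1 log2 or more, where 16.5% of all tested genes did. Their median change was -5.18 and they ranged from -6.68 for Bub1 to -1.34 for Foxm1, a transcription factor of this gene group, whose other probe sets gave -2.83 and -3.20. In 22 of the 50 all 3 replated arrays lay under the 40th percentile. The list was chosen with earlier results of these data known, so its direction is a description.

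Ccnb2, a B-type cyclin that activates the mitotic kinase, read 8.36, 8.35 and 8.37 in proliferating and 1.73, 1.95 and 2.28 in replated cells. The proliferating arrays lay within a few hundredths of each other and far above the replated ones, a fall by 6.37 (SE 0.21, adjusted p = 2.39e-16). Its partner kinase Cdk1 went from 9.06, 9.11 and 8.85 to 3.84, 3.68 and 3.75, and Mki67, the proliferation antigen of the chromosome surface, from 9.24, 9.53 and 9.46 to 3.95, 3.52 and 4.33. Both stayed above the filter level on all replated arrays, and they fell by 5.25 (SE 0.13) and 5.48 (SE 0.21). Top2a, the topoisomerase that untangles sister chromatids, fell by 5.20 (SE 0.17) and Plk1, a kinase of mitotic entry, by 4.94 (SE 0.18).

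Genes of the spindle and of cytokinesis followed. Hmmr, which organises spindle poles, fell by 6.36, the cytokinesis regulator Racgap1 by 6.19, the mitotic kinesin Kif20a by 6.04 and the midbody protein Cep55 by 6.49. Melk, a kinase of cycling cells, fell by 6.03, Cenpe, a kinesin of the kinetochore, by 5.98, and Cenpa, the histone H3 of centromeres, by 5.93. Ube2c, which hands ubiquitin to the anaphase-promoting complex, fell by 5.96 and Cdca3, which acts in mitotic entry, by 5.97. All adjusted p-values of these 9 genes were at most 2.34e-12, and in none of them did the groups overlap.

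Replication genes fell less deeply. Of 40 members measured, 39 fell and 38 of them by 1 log2 or more (95%, against 16.5% of all tested genes). The median was -3.06. Mcm5, a subunit of the replicative helicase, read 7.88, 7.70 and 7.54 in proliferating cells and 1.50, 1.08 and 1.35 in replated cells. The groups were more than 6 log2 units apart and the change was -6.40 (SE 0.19, adjusted p = 5.46e-17). Uhrf1, which keeps DNA methylation after replication, fell by 6.45 (SE 0.15), the helicase subunit Mcm3 by 5.61 (SE 0.22), the primase Prim1 by 5.05 (SE 0.19) and thymidine kinase Tk1 by 4.93 (SE 0.20). Fignl1, a factor of homologous recombination among the 15 largest falls, dropped by 6.22 (SE 0.13). Pcna, the sliding clamp, was still at 8.47, 8.55 and 8.38 in replated cells after 10.46, 10.26 and 10.13 in proliferating ones. It fell by 1.82 (SE 0.11, adjusted p = 5.05e-12), one of the smaller changes of the list. Tyms, thymidylate synthase, was singled out after its values were seen as the 1 member that did not pass, with a change of 0.25 (SE 0.19, adjusted p = 0.243).

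Promoters of these 2 groups of genes are shown because the groups moved together. They are the 250 bases before the start of the RefSeq transcript in GRCm38.p6, 5' to 3' on the gene's strand. In Ccnb2 (chr9:70421555-70421804, minus strand) capitals mark a match to TTTGAA, the spelling searched for the cell cycle homology region, CHR, at -167 to -162. They also mark CCAAT boxes at -87 to -83, -54 to -50 and -21 to -17 from the start. In Mcm5 (chr8:75109259-75109508, plus strand) capitals mark E2F motifs, spelled TTCCCGC or TTGGCGC and here on the reverse strand, at -164 to -158 and -149 to -143. The promoters of Bub1 and Uhrf1 were also read and are not printed. Bub1, the largest fall, had CCAAT boxes and no TTTGAA in its 250 bases, and Uhrf1 had an E2F motif.
Ccnb2: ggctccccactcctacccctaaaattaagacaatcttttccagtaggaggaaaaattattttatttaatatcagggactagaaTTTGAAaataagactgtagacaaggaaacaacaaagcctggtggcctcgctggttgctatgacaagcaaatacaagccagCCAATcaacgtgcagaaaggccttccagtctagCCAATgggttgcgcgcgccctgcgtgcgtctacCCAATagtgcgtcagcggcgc
Mcm5: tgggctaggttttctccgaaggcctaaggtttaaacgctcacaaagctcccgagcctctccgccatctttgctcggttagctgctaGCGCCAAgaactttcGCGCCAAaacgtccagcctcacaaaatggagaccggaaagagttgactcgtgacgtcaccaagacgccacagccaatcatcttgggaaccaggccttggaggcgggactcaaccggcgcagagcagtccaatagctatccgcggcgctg

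Motifs were searched on both strands in windows of 300 bases, 250 before and 50 after each start. Promoters were found for 40 of the 50 mitotic genes, 42 windows in all, and 29 of these (69.0%) held TTTGAA against 11.5% of the windows of all tested genes and 17.9% of all 32851 windows. CCAAT was present in 31 of the 42 (73.8%), against 37.4% of the windows of all tested genes. For replication genes, 21 of 42 windows (50%), from 33 of the 39 genes that fell, held an E2F motif, against 12% among tested genes and 6.81% of all windows. A match describes the letters only, and no binding was measured.

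Genes of G1 were split. Of 18 measured, 10 fell and 8 of them by 1 log2 or more (44.4%, against 16.5% of all tested genes). A further 3 rose and 5 did not pass. The median of -0.78 was -1.16 on the deposited values, -0.52 after median centring and -1.55 over the 13 genes above the 60th percentile. Ccnd1, the D cyclin that growth factors induce, read 9.18, 8.67 and 8.36 in proliferating and 6.25, 6.14 and 6.58 in replated cells. The replated values were all under the proliferating ones, and the fall was by 2.41 (SE 0.25, adjusted p = 2.34e-08). The E cyclins Ccne2 and Ccne1, which drive the entry into S phase, fell by 5.44 (SE 0.21) and 3.32 (SE 0.19), and the repressor E2f8 by 3.44 (SE 0.17). Myc, the growth regulator, went the other way, from 6.94, 6.26 and 5.79 to 8.26, 8.19 and 8.15. The 3 replated arrays were close together and were all above the proliferating ones, a rise of 1.87 (SE 0.29, adjusted p = 5.31e-06). Ccnd2 rose by 0.79 and Mycn by 0.43, and the kinase Cdk6 with the factors E2f3 to E2f6 did not pass, with changes from -0.22 to 0.26.

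Inhibitors of the cycle and genes of arrest moved in both directions. Of 26 measured, 23 passed the filter, 11 rose, 7 fell and 5 did not pass, and the median of 0.03 was of the other sign, -0.23, on the deposited values. A rise of 1 log2 or more was seen in 30.4% and a fall of as much in 21.7%, against 17% and 16.5% of all tested genes. Cdkn1a, which encodes the inhibitor p21, read 7.67, 8.47 and 8.91 in proliferating and 10.62, 10.75 and 10.76 in replated cells. The replated arrays were all higher, and the rise was 2.36 (SE 0.23, adjusted p = 6.6e-09). Klf9, a repressor linked to growth arrest, rose by 3.08 (SE 0.13) and Foxo3, a transcription factor restrained by growth factor signalling, by 2.59 (SE 0.12). Cdkn1b, the inhibitor p27, fell by 0.57 (SE 0.16, adjusted p = 0.0034), and Cdkn2d, the inhibitor p19, by 3.10 (SE 0.13). Rbl1, a pocket protein that is itself made in cycling cells, fell by 4.76 (SE 0.21). With the mean of all probe sets of a gene, Cdkn1b no longer passed (adjusted p = 0.0545).

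Immediate early genes were mostly higher at 2 h, while the best known of them, Fos, Jun and Egr1, did not pass the test. Of 10 AP-1 factors tested of 11 measured, 8 rose, 7 of them by 1 log2 or more, against 17% of all tested genes, with a median of 1.72. Of 28 other immediate early genes, 25 rose, 23 by 1 log2 or more, with a median of 2.05. None of either list fell. In the AP-1 list 3 of the 10 were under the filter level on all proliferating arrays. Both lists were already higher in quiescent than in proliferating cells, with medians of 2.16 for AP-1 factors and 1.72 for the others. From quiescent to replated cells these medians were 0.08 and 0.51. Atf3, a stress-induced repressor of the AP-1 family, read 2.13, 2.03 and 1.85 in proliferating and 6.54, 6.72 and 6.70 in replated cells. The groups were over 4 log2 units apart, and the rise was 4.65 (SE 0.30, adjusted p = 9.32e-12). Maff, a small Maf factor, rose by 4.41 (SE 0.22), Fosb by 4.23 (SE 0.44), Junb by 2.17 (SE 0.22) and Fosl1 by 2.09 (SE 0.25).

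Fos, the factor that serum induces first, read 6.40, 6.18 and 3.40 in proliferating and 6.31, 6.0 and 6.20 in replated cells. The third proliferating array was far under the others, the groups overlapped, and the change of 0.84 did not pass (SE 0.65, adjusted p = 0.244). Without that array it was -0.12. Jun, its partner, read 7.63, 7.38 and 7.68 against 8.43, 7.59 and 7.43, with overlapping groups and a change of 0.25 (SE 0.21, adjusted p = 0.27) that was -0.089 on the deposited values. Egr1, a zinc finger factor of the same early wave, read 8.51, 8.64 and 8.60 against 8.87, 8.36 and 8.90. Its groups overlapped too, and the change was 0.13 (SE 0.26, adjusted p = 0.675), or -0.19 on the deposited values.

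Nr4a1, an orphan nuclear receptor, read 4.46, 3.67 and 3.82 in proliferating and 8.52, 9.13 and 9.28 in replated cells. It had the largest change of its list, 4.99 (SE 0.24, adjusted p = 9.91e-14), with no overlap of the groups. Ptgs2, the inducible cyclooxygenase, rose by 3.90 (SE 0.33), and Pim1, a kinase induced by cytokines, by 3.80 (SE 0.20). A pair of EGF receptor ligands rose in the same way. Ereg went from 5.52, 4.75 and 4.36 to 9.33, 9.87 and 9.81 and Hbegf from 6.49, 6.04 and 5.72 to 9.88, 9.81 and 9.89. In neither gene did the groups overlap, and the changes were 4.80 (SE 0.35) and 3.78 (SE 0.25). The CArG box, the site of serum response factor, was found in 6 of 31 windows (19.4%) of the 25 risen genes outside AP-1, of which 21 had a promoter, against 1.48% of the windows of all tested genes. The cAMP response element, spelled TGACGTC, was also in 6 of 31, against 5.26%. The AP-1 motif TGACTCA was in none of the 9 windows of the AP-1 genes and in 3.96% of those of all tested genes, a share at which 9 windows say nothing about these genes.

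Inhibitors of MAP kinase signalling, which many of the same stimuli induce, were mostly higher. Of 12 measured, 9 rose, 1 fell and 2 did not pass, with a median of 1.35. The 7 that rose by 1 log2 or more were 58.3% of those tested, against 17% of all tested genes. Dusp6, a phosphatase of ERK, read 7.96, 7.48 and 7.06 in proliferating and 9.37, 9.0 and 9.15 in replated cells. All replated values were above all proliferating values, with a rise of 1.68 (SE 0.25, adjusted p = 3.78e-06). The phosphatases Dusp10 and Dusp2 rose by 2.32 (SE 0.17) and 2.18 (SE 0.18), Errfi1, an inhibitor of the EGF receptor, by 1.84 (SE 0.26) and the Ras pathway inhibitor Spred2 by 1.57 (SE 0.16). Dusp14 fell by 0.81, and Spry4 and Spry1 did not pass, with changes of -0.09 and 0.33.

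Chemokines were higher in replated cells. Of 17 measured, 12 passed the filter, 10 rose and all 10 by 1 log2 or more (83.3%, against 17% of all tested genes). The median of the 12 was 3.65, but 4 of them were under the filter level on all proliferating arrays, and over all 17 measured it was 1.99. Ccl2, which attracts monocytes, read 4.27, 3.74 and 3.14 in proliferating and 8.86, 8.99 and 8.72 in replated cells. The groups did not overlap and the rise was 5.14 (SE 0.53, adjusted p = 1.89e-08). Cxcl5, a neutrophil chemokine next to Cxcl1 in function, went from 1.62, 1.71 and 1.76 to 8.45, 8.46 and 8.57, with a rise of 6.79 (SE 0.15). Cxcl2 read 0.99, 0.80 and 1.02 against 4.24, 6.16 and 6.60, where the first replated array was about 2 log2 units under the others, and the change was 4.73 (SE 0.74). Ccl5 rose by 4.40 (SE 0.16). Cxcl12 and Ccl25 did not pass, with changes of -0.22 and 0.29, and another Cxcl12 probe set gave -1.06.

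Targets of NF-kappaB and the IL-6 family were higher as a group. Of 27 measured, 23 passed the filter, 19 rose, 1 fell and 3 did not pass, with a median of 2.48. The 18 that rose by 1 log2 or more were 78.3% of those tested, against 17% of all tested genes. But 7 of the 23 were under the filter level on all proliferating arrays, and over all 27 measured the median was 1.69. With the mean of the probe sets of a gene it was 1.92. Lif, a cytokine of the IL-6 family, read 1.99, 2.20 and 1.56 in proliferating and 5.42, 6.14 and 6.64 in replated cells. The groups were over 3 log2 units apart, and the change was 4.15 (SE 0.48, adjusted p = 8.9e-08). Its receptor Lifr was the 1 member that fell, by 1.88 (-0.28 and -0.57 on dimmer probe sets), whereas Il6ra and Osmr, receptor subunits of IL-6 and oncostatin M, rose by 3.70 (SE 0.25) and 3.21. A second, dim Il6ra probe set changed by 0.20. The acute phase gene Saa3 rose by 4.57 (SE 0.23), Bcl3, a nuclear IkB protein, by 3.29 (SE 0.25), the inhibitor Nfkbia by 2.83 and Socs3, which dampens cytokine receptors, by 2.48. Tnfaip3, Irf1 and Socs1 did not pass, with changes of 0.52, -0.04 and 0.26. The 4 macrophage markers that passed the filter were higher in the same cells, Cd14 by 2.96, Cd68 by 2.11, Csf1r by 1.49 (0.23 on another probe set) and Clec10a by 1.27, with the defining markers under the 40th percentile as given above.

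Promoters of Cxcl1 and Il6 are shown as those of the 2 secreted factors with the largest rises, again 250 bases before the RefSeq start in GRCm38.p6. In Cxcl1 (chr5:90890995-90891244, plus strand) capitals mark NF-kappaB motifs, spelled GGG, any 2 bases, then TTTCC, at -89 to -80 on the reverse strand and at -71 to -62. In Il6 (chr5:30012864-30013113, plus strand) they mark that motif at -44 to -35, an AP-1 motif at -249 to -243 and a cAMP response element at -137 to -131, the last 2 on the reverse strand. Cxcl2, also read, had NF-kappaB motifs, and Saa3 had none of the motifs marked in Il6. Atf3, Maff, Nr4a1 and Ptgs2 were read for the AP-1 motif and the cAMP response element only, and held neither in the 250 bases.
Cxcl1: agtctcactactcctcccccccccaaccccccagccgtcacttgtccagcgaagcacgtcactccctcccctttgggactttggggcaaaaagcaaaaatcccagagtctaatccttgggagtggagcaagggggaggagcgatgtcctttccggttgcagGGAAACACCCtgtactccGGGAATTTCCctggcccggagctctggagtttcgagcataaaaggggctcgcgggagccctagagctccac
Il6: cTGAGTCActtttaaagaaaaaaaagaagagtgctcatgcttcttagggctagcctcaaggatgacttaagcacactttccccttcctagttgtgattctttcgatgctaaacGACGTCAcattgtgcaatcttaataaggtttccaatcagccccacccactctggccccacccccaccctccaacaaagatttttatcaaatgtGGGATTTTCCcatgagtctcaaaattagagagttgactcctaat

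The NF-kappaB motif was in 6 of 19 windows (31.6%) of the called genes of the NF-kappaB and IL-6 list, 16 of 20 of which had a promoter, and in 3 of 5 windows (60%) of the chemokines, 5 of 10 of which had one. Among all tested genes 1.67% of windows held it. The first list was drawn up as targets of NF-kappaB, so a higher share there may follow from its choice. Genes with several windows count more than once.

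Growth factors and their receptors rose more often than they fell. Of 39 measured, 34 passed the filter, 26 rose, 3 fell and 5 did not pass, with a median of 1.25. The 19 that rose by 1 log2 or more were 55.9% of those tested, against 17% of all tested genes. Over all 39 measured the median was 0.96, and 4 of the 34 were under the filter level on all proliferating arrays. Pdgfb, a ligand of PDGF receptors, read 5.57, 5.83 and 5.90 in proliferating and 8.80, 8.72 and 8.70 in replated cells. The replated arrays were all higher, by 2.97 on average (SE 0.15, adjusted p = 1.21e-13). Fgfr1, the main FGF receptor of myoblasts, went from 6.15, 6.91 and 6.73 on the proliferating arrays to 10.10 ± 0.10 (SD, n = 3) in replated cells, a rise of 3.51 (SE 0.17), and Pdgfra, a PDGF receptor typical of fibroblasts, rose by 2.32 (SE 0.19). Vegfa, the angiogenic factor, rose by 2.15 (SE 0.13), Hgf, the ligand of Met that activates muscle stem cells, by 1.91 and Igf2 by 1.99. Fgfr4, a receptor of the myogenic lineage, fell by 1.11, and the docking proteins split, with Irs2 higher by 2.26 and Irs1 lower by 1.80. Igf1 did not pass, with a change of -0.14.

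In the TGF-beta and BMP list, 29 of 36 measured members passed the filter, 22 rose and 3 fell, with a median of 1.02. The 15 that rose by 1 log2 or more were 51.7% of those tested, against 17% of all tested genes. Over all 36 measured the median was 0.70. Inhba, the subunit of activin A, read 7.97, 7.45 and 7.58 in proliferating and 11.01, 11.22 and 11.27 in replated cells. The replated arrays were all above 11, with a rise of 3.50 (SE 0.22, adjusted p = 4.22e-12). Secreted antagonists were also higher, the BMP binder Grem1 by 2.69 (SE 0.20) and the activin binder Fst by 2.16 (SE 0.19). The 3 members that fell were Id3, Id2 and Id1, targets of BMP signalling that hold back MyoD. Id3 read 9.46, 9.08 and 9.29 in proliferating and 7.33, 6.69 and 5.93 in replated cells. It fell by 2.63 (SE 0.27, adjusted p = 1.34e-08), with more spread among the replated arrays than among the proliferating ones, and Id2 and Id1 fell by 2.38 (SE 0.17) and 1.95.

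Notch and Wnt genes moved in both directions. Of 37 measured, 29 passed the filter, 15 rose, 10 fell and 4 did not pass, and the median of 0.33 became -0.10 on the deposited values. By 1 log2 or more 34.5% rose and 20.7% fell, against 17% and 16.5% of all tested genes. Of the 29, 6 were under the filter level on all proliferating arrays and passed it only through other groups. Wnt11, a non-canonical Wnt ligand, read 1.39, 1.56 and 1.53 in proliferating and 4.19, 4.31 and 4.55 in replated cells. It went from under the filter level to a clear signal, a rise of 2.86 (SE 0.10, adjusted p = 8.7e-16). Dkk3, a secreted protein of the Dickkopf family, rose by 3.42 (SE 0.27). The receptors Fzd7 and Fzd2 went opposite ways, with changes of 2.0 (SE 0.14) and -1.89 (SE 0.19). Hes6, a factor that favours myogenic differentiation, fell by 2.41 (SE 0.23), and the Notch targets Hey1 and Hes1 fell by 1.39 and 1.18.

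Reattachment genes did not move as 1 group. Of 27 targets of YAP and serum response factor, 15 fell, 9 of them by 1 log2 or more, 5 rose, 4 of them by as much, and 7 did not pass, with a median of -0.50, or -0.80 on the deposited values and -0.16 after median centring. By 1 log2 or more 33.3% fell and 14.8% rose, against 16.5% and 17% of all tested genes. Ccn2, also called CTGF, a matrix-associated protein that YAP and TGF-beta induce, read 7.74, 6.89 and 7.09 in proliferating and 11.43, 10.88 and 10.91 in replated cells. All replated values were at least 3 log2 units above the proliferating ones, and the rise was 3.83 (SE 0.35, adjusted p = 3.24e-09). Its relative Ccn1 rose by 1.92 (SE 0.22) and Srf, the factor itself, by 1.85 (SE 0.15), with 0.71 on another Srf probe set. Among the members that fell are parts of the contractile actin apparatus. Cnn1, calponin, fell by 2.49 (SE 0.21), the myosin light chain Myl9 by 2.20 (SE 0.16), Tagln by 1.47 and Acta2 by 1.21, with 0.11 on another, dimmer Acta2 probe set. Actb, cytoplasmic actin, did not pass, with a change of -0.08 (SE 0.08, adjusted p = 0.322), while another bright probe set of Actb gave 1.12.

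Of 22 integrin and focal adhesion genes measured, 18 passed the filter, 9 rose, 6 of them by 1 log2 or more, 3 fell and 6 did not pass, and the median of 0.27 was -0.060 on the deposited values. The share that rose by 1 log2 or more was 33.3%, against 17% of all tested genes. Itga5, the alpha chain of the fibronectin receptor, read 3.18, 3.57 and 3.66 in proliferating and 6.31, 6.90 and 7.10 in replated cells. The rise of 3.30 (SE 0.28, adjusted p = 8.56e-10) was the largest of the list, and another Itga5 probe set gave 1.71. Its partner Itgb1 fell by 0.53 (SE 0.20, adjusted p = 0.0185), with overlapping groups and 1.19 on another, dimmer probe set of Itgb1. The membrane scaffold Cav1 rose by 1.65 (SE 0.19), the adaptor Pxn, paxillin, by 1.39 (SE 0.14), Itgb5 by 1.13 (SE 0.16) and Itgb7 by 1.10 (SE 0.15).

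Matrix genes were higher on balance, with a median of 0.71 (0.20 on the deposited values) over 39 tested of 44 measured, 24 higher, 13 of them by 1 log2 or more, and 4 lower. The 13 were 33.3% of those tested, against 17% of all tested genes, and 5.13% fell by as much, against 16.5%. Collagen VI, the microfibrillar collagen that surrounds muscle fibres, had the largest rises of the list after Dcn. Col6a1 read 3.78, 5.04 and 5.76 in proliferating and 10.33, 10.24 and 10.48 in replated cells. The proliferating arrays spanned about 2 log2 units and still lay under all replated ones, and the rise was 5.49 (SE 0.32, adjusted p = 1.55e-12). Its partner chain Col6a2 rose by 4.37 (SE 0.28), and Col6a3 by 1.0. Dcn went from 1.79, 2.08 and 2.59 to 9.17, 8.95 and 9.35, the matricellular protein gene Postn rose by 3.53 (SE 0.30) and Col5a3 by 3.46 (SE 0.35). Fn1, fibronectin, was bright in both states and rose by 0.96 (SE 0.09, adjusted p = 3.2e-09), with 2.60 on another Fn1 probe set. Col1a1, the main fibrillar collagen, did not pass, with 4.12, 5.18 and 5.57 in proliferating, 4.64, 4.45 and 4.39 in replated cells and overlapping groups, and neither did Col1a2 with a change of 0.12, while another bright Col1a2 probe set gave -0.99. The fibroblast markers Pdgfra, Pi16, Lum and Cd34 were higher in the same cells, by 2.32, 2.21, 1.20 and 1.12, with Dpt and Thy1 under the 40th percentile.

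Proteases that cut matrix and their inhibitors were higher in 16 of 20 tested members of 21 measured, 12 of them by 1 log2 or more, with 1 lower and a median of 1.30. The 12 were 60% of those tested, against 17% of all tested genes. Of the 20, 4 were under the filter level on all proliferating arrays. Timp3, a matrix-bound inhibitor, read 8.60, 8.26 and 7.93 in proliferating and 11.40, 11.23 and 11.32 in replated cells. The groups were well apart, with a rise of 3.06 (SE 0.21, adjusted p = 3.05e-11), and other Timp3 probe sets gave 1.84 to 2.68. The collagenases and stromelysins Mmp10, Mmp13 and Mmp19 rose by 3.25, 3.05 and 2.62 from levels under the filter. Adam12, a protease of fusing myoblasts, was the 1 member that fell, by 2.31 (SE 0.18).

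Of 12 tubulin and stathmin genes tested of 14 measured, 8 fell, 5 of them by 1 log2 or more, 2 rose and 2 did not pass, with a median of -0.69, or -0.30 after median centring. The 5 were 41.7% of those tested, against 16.5% of all tested genes. Stmn1, a microtubule destabiliser of dividing cells, read 10.12, 10.33 and 10.37 in proliferating and 6.56, 6.13 and 6.19 in replated cells. It fell by 3.98 (SE 0.13, adjusted p = 1.56e-16), with no overlap. Tubg1, the gamma-tubulin that nucleates microtubules, fell by 2.67 (SE 0.11), and the beta-tubulins Tubb4b, Tubb3 and Tubb5 fell by 1.62, 1.48 and 1.27. Tubb6 rose by 0.74 and Stmn4 by 0.80. Other Tubb4b probe sets gave 0.56 and 0.32.

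Enzymes of sterol synthesis were lower. Of 19 measured, 17 fell, 16 of them by 1 log2 or more, and 2 did not pass, with a median of -2.48. The 16 were 84.2% of those tested, against 16.5% of all tested genes. Fdps read 7.59, 7.51 and 7.54 in proliferating and 1.74, 1.46 and 1.41 in replated cells. The replated arrays were under the filter level, and the fall was by 6.01 (SE 0.18, adjusted p = 6.36e-17), while another Fdps probe set was dim on all 6 arrays and gave 0.09. Idi1, the isomerase that acts before it, went from 7.85, 7.88 and 7.82 to 2.13, 2.24 and 2.21, a fall by 5.66 (SE 0.11). Hmgcs1, which makes HMG-CoA, remained detected at 6.67, 6.72 and 6.92 and fell by 2.38 (SE 0.13), with -3.51 to -4.61 on its other probe sets. The sterol carrier Stard4 fell by 4.02, the desaturase Sc5d by 3.92, the demethylating oxidase Msmo1 by 3.81 and squalene synthase Fdft1 by 3.80. Srebf2, the transcription factor of the pathway, fell by 1.73 and Sqle, squalene epoxidase, by 1.11 (SE 0.13). The exporter Abca1, which oxysterol-activated receptors induce, went from 1.24, 1.15 and 1.26 to 6.74, 6.43 and 6.41, and its other probe sets were dim and gave 0.09 and 0.11. Lpl, lipoprotein lipase, read 3.43, 3.73 and 4.08 against 8.46, 8.06 and 8.11 and rose by 4.47 (SE 0.22, adjusted p = 1.36e-13), with the adipocyte markers Adipoq and Fabp4 under the 40th percentile on all 6 arrays.

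Genes of glycolysis and hypoxia were mostly higher. Of 31 measured, 29 passed the filter, 25 rose, 1 fell and 3 did not pass, with a median of 1.55. The 18 that rose by 1 log2 or more were 62.1% of those tested, against 17% of all tested genes. Car9, which balances pH at the surface of hypoxic cells, read 1.14, 1.20 and 1.27 in proliferating and 8.14, 8.67 and 8.35 in replated cells. It rose from the bottom of the array's range by 7.18 (SE 0.18, adjusted p = 1.56e-18). Pdk1, which turns pyruvate away from mitochondria, went from 2.11, 2.84 and 3.30 to 7.55, 7.96 and 7.65, and Bnip3, a receptor for mitophagy, from 5.09, 5.47 and 5.64 to 9.60, 9.93 and 9.72. Neither showed overlap, and they rose by 4.97 (SE 0.28) and 4.35 (SE 0.19). Ndrg1 rose by 4.52 (SE 0.13), the enolase Eno2 by 4.22 (SE 0.17), the glucose transporters Slc2a3 and Slc2a1 by 3.58 and 2.98 and the hexokinase Hk2 by 2.92. Hif1a, the regulated subunit of the hypoxia factor, did not pass, with -0.16 (0.39 and -0.89 on its other probe sets), and neither did the glycolytic enzymes Ldha and Pkm, with -0.03 and 0.14. The core of the hypoxia response element, spelled ACGTG, was in 21 of 33 windows (63.6%) of the called members, 24 of 26 of which had a promoter, against 25.9% of the windows of all tested genes. The list was drawn up as hypoxia and glycolysis genes, so a higher share may follow from its choice.

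Subunits of the respiratory chain were lower, with 48 of 61 falling, 17 of them by 1 log2 or more, 1 rising and a median of -0.64. The share that fell by 1 log2 or more was 27.9%, against 16.5% of all tested genes. Cycs, cytochrome c, read 9.89, 9.73 and 9.62 in proliferating and 8.08, 7.91 and 7.63 in replated cells. The groups did not overlap, and the fall was by 1.87 (SE 0.11, adjusted p = 2.79e-12). Ndufa4 fell by 1.89 (SE 0.14), the complex I subunit Ndufs1 by 1.46 (SE 0.10) and the ATP synthase subunits Atp5a1 and Atp5b by 1.59 (SE 0.19) and 1.58 (SE 0.15). Other probe sets of Atp5a1 gave 0.83 and -0.70. On the deposited values 28 of the 61 fell by 1 log2 or more, and after median centring 8 did, with medians of -0.93 and -0.29.

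Lysosomal and autophagy genes were higher in 33 of 40 tested members of 42 measured, 22 of them by 1 log2 or more, with 2 lower and a median of 1.05. The 22 were 55% of those tested, against 17% of all tested genes. Ctsa, a lysosomal carboxypeptidase that protects other hydrolases, read 6.40, 6.66 and 6.67 in proliferating and 9.08, 9.06 and 9.09 in replated cells. The replated arrays were within a few hundredths of each other, with a rise of 2.50 (SE 0.09, adjusted p = 4.76e-16). Naglu rose by 3.26 (SE 0.13), acid glucosidase Gaa by 2.44 (SE 0.15), cathepsin Ctsf by 2.57 (SE 0.28) and Hexa by 2.23 (SE 0.11). Gusb, another hydrolase of the lysosome, fell by 1.62. In the list of glutathione metabolism and Nrf2 targets, 17 of 34 tested members of 37 measured rose, 8 fell and 9 did not pass, with a median of 0.40, or 0.041 on the deposited values and 0.14 over all 37 measured. A rise of 1 log2 or more was seen in 29.4% and a fall of as much in 5.88%, against 17% and 16.5% of all tested genes. Of the 34, 4 were under the filter level on all proliferating arrays. Mgst1, a membrane glutathione transferase, read 1.25, 1.20 and 0.98 against 6.60, 5.92 and 5.74 and had the largest rise there, 4.94 (SE 0.26, adjusted p = 3.44e-13). Gpx3, the secreted glutathione peroxidase, rose by 4.07 (SE 0.17), the epoxide hydrolase Ephx1 by 2.84 (SE 0.15), heme oxygenase Hmox1 by 2.60 (SE 0.38) and Gstm1 by 2.51 (SE 0.14). Nfe2l2, which encodes Nrf2, did not pass, with -0.04.

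Ribosome biogenesis genes moved in both directions with mostly small changes. Of 45 genes, 21 fell, 5 of them by 1 log2 or more, 11 rose, 2 of them by as much, and 13 did not pass, with a median of -0.22. The share that fell by 1 log2 or more was 11.1%, against 16.5% of all tested genes. Gnl3, nucleostemin, read 8.32, 8.12 and 7.90 in proliferating and 9.19, 9.27 and 9.46 in replated cells. All replated values were above the proliferating ones, with a rise of 1.19 (SE 0.15, adjusted p = 3.33e-07), and Ppan, a factor of the large subunit, rose by 1.10 (SE 0.15). Polr1e, a subunit of RNA polymerase I, fell by 1.83 (SE 0.22), Nop16 by 1.53 (SE 0.23) and Imp4 by 1.08 (SE 0.15), with 0.37 on another Imp4 probe set. The abundant nucleolar proteins Npm1 and Ncl fell by 0.86 (SE 0.09) and 0.57 (SE 0.12), and Ncl no longer passed after centring on the array median, at -0.16. Other Ncl probe sets gave -1.45, -0.53 and -0.044. On the deposited values none of the 45 rose by 1 log2 or more and 13 fell as much, with a median of -0.67, and after median centring 4 rose and 3 fell, with a median of -0.027.

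Proteasome subunits were lower in 31 of 36 tested members of 38 measured, 15 of them by 1 log2 or more, and none rose, with a median of -0.86. The share that fell by 1 log2 or more was 41.7%, against 16.5% of all tested genes. Psma1, a subunit of the core ring, read 7.99, 7.95 and 7.85 in proliferating and 6.16, 5.93 and 5.74 in replated cells. It fell by 1.99 (SE 0.10, adjusted p = 1.09e-13), with no overlap. The activator Psme3 fell by 1.46, Psmb7 by 1.41, the ATPase Psmc1 by 1.38 and the assembly factor Psmd5 by 1.36. On the deposited values 24 of the 36 fell by 1 log2 or more, and after median centring 6 did, with medians of -1.17 and -0.53.

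In the list of the unfolded protein and integrated stress responses 23 of 45 genes rose, 14 of them by 1 log2 or more, 11 fell and 11 did not pass, with a median of 0.40, or 0.12 on the deposited values and 0.76 after median centring. By 1 log2 or more 31.1% rose and 15.6% fell, against 17% and 16.5% of all tested genes. Ddit3, the stress factor CHOP, read 4.58, 4.33 and 4.52 in proliferating and 6.89, 7.75 and 7.69 in replated cells. It rose by 2.97 (SE 0.20, adjusted p = 2.06e-11), with all replated values above the proliferating ones. Cebpb rose by 2.91 (SE 0.12), the chaperone partner Dnajb9 by 2.72 (SE 0.25), Ppp1r15a, which restores translation after stress, by 2.59 (SE 0.15) and the lipoprotein receptor Vldlr by 3.0 (SE 0.15). Atf4 and the chaperone Hspa5 rose by 0.85 (SE 0.08) and 0.95 (SE 0.24). The members that fell include enzymes of serine and asparagine synthesis, Psat1 by 2.17, Phgdh by 1.25 and Asns by 0.89.

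Among heat shock genes and chaperones, 18 of 30 fell, 7 of them by 1 log2 or more, 3 rose and 9 did not pass, with a median of -0.60. The share that fell by 1 log2 or more was 23.3%, against 16.5% of all tested genes. On the deposited values 14 fell by 1 log2 or more, and after median centring 2 did. The 3 that rose are the inducible Hspa1a (2.51, SE 0.15), Hspa1b (1.52, SE 0.16) and Hspb8 (1.02, with -0.13 on another probe set). Hspa1a and Hspa1b are near-identical genes, so their probe sets can share transcripts, and other Hspa1b probe sets gave 0.09 and 0.19. The mitochondrial pair Hspe1 and Hspd1 fell by 1.61 (SE 0.09) and 1.44 (SE 0.19), and the chaperonin subunit Cct5 by 1.26 (SE 0.13).

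Targets of p53 were higher in 14 of 22 tested members of 24 measured, 12 of them by 1 log2 or more, with 5 lower and a median of 1.07, or 0.60 on the deposited values. The 12 were 54.5% of those tested, against 17% of all tested genes. Fas, a death receptor, read 1.46, 1.36 and 1.43 in proliferating and 3.85, 3.74 and 3.63 in replated cells. It rose from under the filter level by 2.32 (SE 0.12, adjusted p = 3.64e-13), and the antiproliferative Btg2 rose by 2.33 (SE 0.31). Gtse1, a protein of G2 that is also a mitotic gene, fell by 3.30 (SE 0.13). Of 29 interferon response genes measured, 15 passed the filter, 12 rose, 7 of them by 1 log2 or more, and 3 fell. The 7 were 46.7% of those tested, against 17% of all tested genes. The list median of 0.59 depended on the filter, with 0.31 over all 29 measured and 1.56 over the 8 above the 60th percentile. Class I antigen presentation genes were among those that rose, with H2-K1 at 2.79 (SE 0.11; 1.0 and 1.11 on other probe sets) and Tapbp at 1.83 (SE 0.16). Ifitm1 rose by 2.57 (SE 0.22) and Isg20 by 2.13 (SE 0.24). Ifit2, an antiviral RNA-binding protein, fell by 3.08 (SE 0.14).

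The muscle genes split between early regulators and contractile genes. Of 20 myogenic regulators tested of 24 measured, 9 fell, 8 of them by 1 log2 or more, 4 rose and 7 did not pass, with a median of -0.33, or -0.66 on the deposited values and -0.018 after median centring. The 8 were 40% of those tested, against 16.5% of all tested genes, and 10% rose by as much, against 17%. Myod1, the regulator that commits cells to muscle, read 7.65, 7.66 and 8.20 in proliferating and 7.46, 7.05 and 7.73 in replated cells. The groups overlapped, and the change of -0.43 missed the threshold (SE 0.19, adjusted p = 0.0519), while it passed in 8 of 18 other settings, among them the deposited values at -0.78 and the replicate block over all 24 arrays (adjusted p = 0.00608 in limma). Myf5, its close relative, went from 6.27, 6.05 and 6.23 to 4.68, 4.71 and 4.35 and fell by 1.60 (SE 0.13, adjusted p = 2.97e-10). Cdh15, the M-cadherin of myoblasts, fell by 3.01 (SE 0.23) and Six4, a homeobox factor of the lineage, by 1.95 (SE 0.17). Myog, which starts differentiation, read 4.80, 7.13 and 8.65 against 7.78, 7.29 and 7.56. Its proliferating arrays spanned almost 4 log2 units, the change was 0.68 (SE 0.60, adjusted p = 0.306), and it moved to -0.35 without the first proliferating array and to 1.58, past the threshold, without the third. Des, desmin, did not pass, with -0.23 (SE 0.19, adjusted p = 0.264), or 0.37 with the mean of its probe sets and -0.54, which passed, on the deposited values.

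Contractile genes were mostly higher, with 27 of 46 tested members of 50 measured rising, 22 of them by 1 log2 or more, 5 falling, 14 not passing and a median of 0.97. The 22 were 47.8% of those tested, against 17% of all tested genes. Of the 46, 12 were under the filter level on all proliferating arrays and passed it only through other groups. The median was 1.82 from proliferating to quiescent cells and -0.58 from quiescent to replated cells. Trdn, triadin of the calcium release complex, read 1.39, 1.71 and 3.06 in proliferating and 5.53, 5.48 and 5.69 in replated cells. The third proliferating array was above the other two but under all replated ones, and the rise was 3.51 (SE 0.30, adjusted p = 9.19e-10). The fast myosin Myh1 rose by 3.04 (SE 0.43), the thin filament cap Tmod1 by 2.60 (SE 0.17) and Acta1, skeletal actin, by 1.64. Chrnb1, a subunit of the acetylcholine receptor, fell by 2.74 (SE 0.15), and the muscle enolase Eno3 by 2.52 (SE 0.14).

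Genes of the cilium and of Hedgehog signalling had mostly small changes. Of 30 tested of 31 measured, 15 fell, 4 of them by 1 log2 or more, 6 rose and 9 did not pass, and the median of -0.19 was 0.019 after centring on the array median and -0.62 on the deposited values. The share that fell by 1 log2 or more, 13.3%, was near the 16.5% of all tested genes. Cep290, a protein of the ciliary transition zone, fell by 2.25 (SE 0.17) and Hhip, a Hedgehog target and antagonist, by 2.03 (SE 0.20), both to levels under the filter. The transport subunits Ift80 and Ift74 fell by 1.45 (SE 0.14) and 1.19 (SE 0.13), and Boc, a Hedgehog co-receptor, rose by 1.44 (SE 0.15). Ift88 itself read 4.25, 3.65 and 4.02 in proliferating and 3.26, 2.78 and 3.44 in replated control cells. The replated values were all lower, and the fall was by 0.81 (SE 0.17, adjusted p = 2.44e-04).

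Quiescent control cells, the state the replated cells came from, are set beside both groups. The comparisons of quiescent with proliferating and of replated with quiescent cells share arrays with the one above, so their values are given side by side only. Against quiescent cells 5524 genes differed in replated cells (64.3%), with 2337 higher (27.2%) and 3187 lower (37.1%), 590 (6.86%) and 742 (8.63%) of them by 1 log2 or more. Against proliferating cells 6062 genes differed in quiescent cells (70.5%), with 3206 higher (37.3%) and 2856 lower (33.2%), 1304 (15.2%) and 1041 (12.1%) of them by 1 log2 or more.

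Mitotic and replication genes were already low in quiescent cells. The median of the mitotic list was -4.80 from proliferating to quiescent and -0.43 from quiescent to replated cells, and that of the replication list was -2.93 and -0.37. Mki67 read 3.69, 3.83 and 4.56 on the quiescent arrays, and its change from there to replated cells was -0.09 (adjusted p = 0.722 in limma). Sterol enzymes had medians of -2.17 and -0.25, and glycolysis and hypoxia genes of 2.17 and -0.64. Idi1 was at 2.77 ± 0.11 (SD, n = 3) in quiescent cells and Car9 at 8.83 ± 0.24, and their changes from there to the replated state were -0.57 and -0.45.

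Several genes were higher in replated cells than in either other state. Ccn2 read 5.01, 5.31 and 5.68 on the quiescent arrays, under the proliferating ones, and rose from there by 5.74 (adjusted p = 5.02e-11). Pdgfb read 3.10, 3.74 and 3.53 and rose by 5.28 (adjusted p = 3.14e-16), and Hbegf, Inhba and Itga5 rose from the quiescent state by 4.01, 4.18 and 2.65. Il6 was uneven in quiescent cells, at 3.11, 4.20 and 6.91, and rose by 4.76 (adjusted p = 7.38e-07). Zc3h12a, an RNase that degrades Il6 mRNA and was singled out after its values were seen, rose by 2.55 from quiescent to replated and by 4.79 from proliferating to replated cells. Cxcl1, in contrast, read 10.23, 10.54 and 11.15 in quiescent cells, and its change to the replated state of -0.25 did not pass (adjusted p = 0.425).

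Other genes were higher in quiescent cells than after replating. Fos read 9.22, 10.08 and 10.03 there and fell by 3.61 to the replated state (adjusted p = 6.64e-05), and Egr1 and Jun fell by 1.91 and 0.99. All 3 rose from proliferating to quiescent cells, by 4.45, 2.04 and 1.24. Cdkn1b was at 7.46 ± 0.08 in quiescent cells and fell by 1.73 (adjusted p = 1.57e-08). Id3 and Id2 were at 9.47 ± 0.11 and 8.86 ± 0.12, with changes from the proliferating state of 0.19 and 0.39, and fell by 2.82 and 2.77 after replating. Cdkn2d was at 6.04 ± 0.02 in quiescent cells and fell by 2.71.

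Ribosome biogenesis genes were mostly higher in replated than in quiescent cells. In 41 of the 45 the replated level was higher, in 24 by 1 log2 or more, and in 1 it was lower, with a median of 1.07 against -1.37 from proliferating to quiescent. Ppan was at 5.09 ± 0.17 in quiescent cells and rose by 2.31 (adjusted p = 1.01e-10), and Gnl3 rose by 1.87 (adjusted p = 1.96e-09). Ccnd1 rose by 0.88 (adjusted p = 0.00495) from 5.45 ± 0.33 and remained under its proliferating level as given above. Sqle, alone among the 4 sterol genes drawn, rose, by 1.05 (adjusted p = 5.51e-07).

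**Figure D3:**
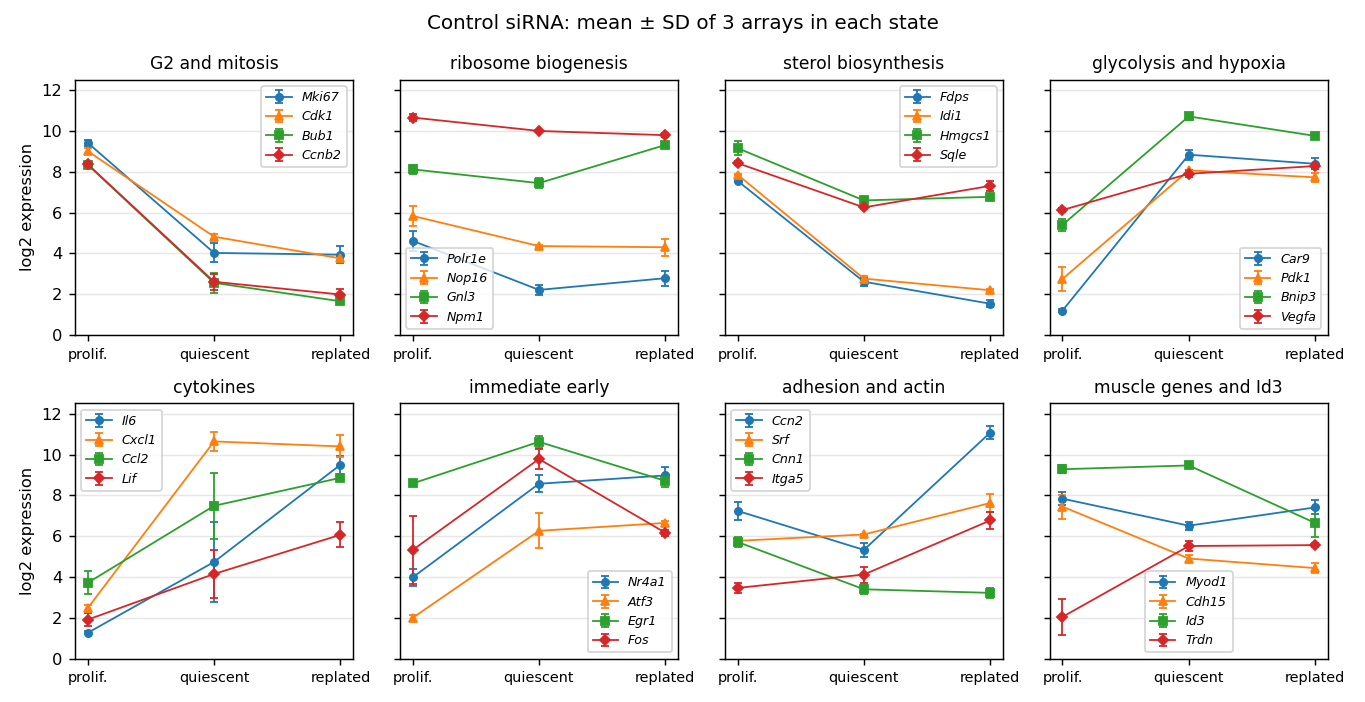
Mean log2 signal (y axis, SD of 3 arrays as bars) of 32 genes in proliferating, quiescent and replated control cells (x axis), in 8 panels by function. The panels for G2 and mitosis and for sterol synthesis drop after the proliferating state, and Ccn2 has its highest mean, 11.07 ± 0.31, in replated cells.

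Cells with Ift88 siRNA gave the same comparison on 6 other arrays. Their Ift88 signal was 3.53, 3.40 and 3.48 in proliferating and 2.34, 2.51 and 2.38 in replated cells, under the control values of the same state on every array. Between their replated and proliferating arrays 6462 genes differed (75.2%), with 3196 higher (37.2%) and 3266 lower (38%), 1353 (15.7%) and 1331 (15.5%) of them by 1 log2 or more. Of the 2875 genes that changed by 1 log2 or more in control cells, 2856 (99.3%) were called with the same sign here and none with the other. Across the 8597 genes the changes of both siRNA groups had a Pearson correlation of 0.982 and a Spearman correlation of 0.977, where genes are not independent replicates.

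The difference between the siRNA groups in this change passed for 37 genes, 0.43% of those tested, and genes of mitosis whose fall was smaller with Ift88 siRNA were among them. The difference was positive for 30 genes (0.349%) and negative for 7 (0.0814%), and it reached 1 log2 in 27 (0.314%) and 4 (0.0465%) of them. Of the 50 mitotic genes, 18 were among the 30. Ccnb2 read 8.26, 8.20 and 8.05 in proliferating and 3.38, 4.35 and 3.72 in replated IFT88KD cells, so that the replated arrays lay above those of control cells, and the difference was 2.02 (SE 0.30, adjusted p = 0.00155). Mki67 read 9.41, 9.48 and 9.43 and 5.86, 5.98 and 6.01, a difference of 1.99 (SE 0.30, adjusted p = 0.00155). The replated values of both genes did not overlap between the siRNA groups. Bub1 had a difference of 1.97 (SE 0.30), Ube2c of 1.86 (SE 0.27), Top2a of 1.78 (SE 0.24) and Cdk1 of 1.57 (SE 0.18). These 6 genes still fell by 3.42 to 4.71 in IFT88KD cells.

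Wnt11 rose by more with Ift88 siRNA, with a difference of 0.76 (SE 0.15, adjusted p = 0.0149). Of the 7 genes with a negative difference, Ephx1 read 6.09, 5.85 and 6.51 in proliferating and 7.64, 7.56 and 7.92 in replated IFT88KD cells. Its replated level was near that of control cells, its proliferating level was higher, and the difference was -1.28 (SE 0.21, adjusted p = 0.00276). The chemokine Ccl8 read 2.09, 1.69 and 2.08 and 4.89, 5.34 and 5.12, against 2.23, 2.34 and 1.73 and 6.09, 6.36 and 6.52 in control cells, a difference of -1.07 (SE 0.22, adjusted p = 0.0296). The endosomal protein gene Cd68 had a difference of -1.15, Dglucy, a mitochondrial enzyme, of -1.0 and Pmm1, which makes mannose phosphate for glycosylation, of -0.92.

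Arrays of equal replicate number deviated together between the siRNA groups of a state, which the main fit ignores. With that number as a replicate block within each state, an alternative added after the data were seen, the difference passed for 151 genes, 106 positive and 45 negative, and for 29 of the 50 mitotic genes upwards. Without the second control proliferating array it passed for 23 genes, without the third IFT88KD replated array for 24 and without the first IFT88KD proliferating array for 24. Ccnb2, Mki67, Bub1, Ube2c, Top2a and Cdk1 passed in all 23 other settings, 12 of which leave out an array. Ephx1 lost its call in 1, where the compared arrays were fitted alone (adjusted p = 0.0653 in limma). The call was lost in 10 settings for Ccl8, 9 for Wnt11, 8 for Pmm1 and 11 for Dglucy, of which 7, 6, 5 and 9 leave out an array, and in 4 of 22 for Cd68, none of which does.

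**Figure D4:**
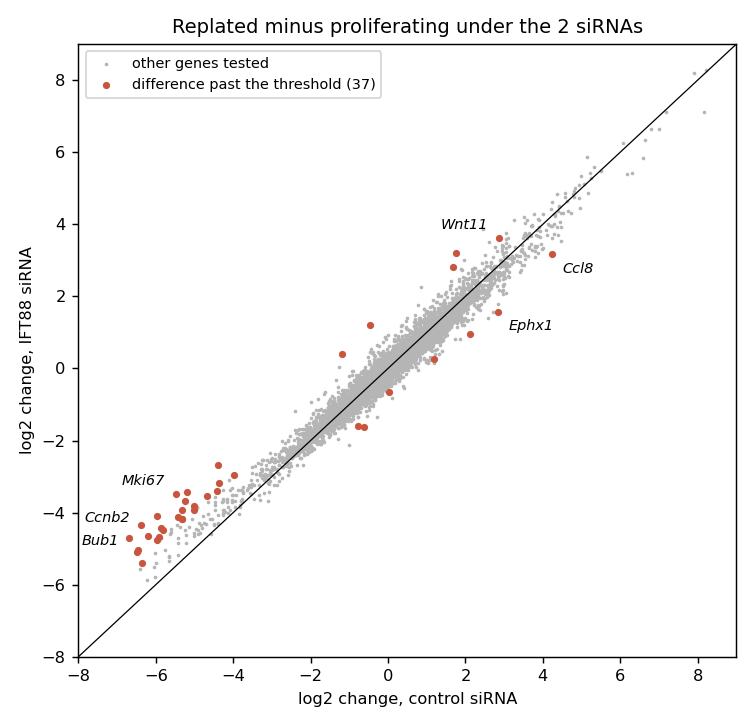
Change from proliferating to replated cells under Ift88 siRNA (y axis, log2) against the change under control siRNA (x axis, log2), 1 point for each of 8597 genes. The 37 genes whose difference passed are red, and those of division such as Mki67, at -5.48 and -3.49, lie above the line of equal change.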

How the data were processed

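RNA of each of 24 C2C12 samples was read on an Affymetrix mouse array, and the authors deposited log2 signals per probe set. The submitters' processing notes name GCOS, Affymetrix Expression Console and affy, while the normalisation method, versions and build are not given in the sources used here. Precision is limited by the number of arrays, and raw intensities were not analysed here. Of 22690 probe sets, 20380 name 1 gene in the platform annotation, 691 several, 1555 none and 64 are controls. No column belonged to another sample, and no 2 arrays held the same values.

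The 24 arrays were quantile normalised, each gene was read from the probe set with the highest mean (x_at sets aside where another existed), and genes above the array's 40th percentile on at least 3 arrays were kept, 8597 in all. limma 3.58.1 in R 4.3.3 fitted a mean per group over all 24 arrays, with Benjamini-Hochberg adjustment and a threshold of 0.05. The script was tested on simulated data with 200 changed genes of the 8597. That simulation did not repeat the normalisation, so it cannot speak for data in which most genes differ. Python 3.11.15, pandas 2.3.3, numpy 2.4.6 and matplotlib 3.10.9 were used for promoters and figures.

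Genes named are the 15 largest rises and falls among called genes whose groups do not overlap and whose sign is the same on 3 scalings, up to 5 such members of each list with the largest changes and up to 2 with the smallest, the 5 largest differences between siRNA groups in each direction, and the best known members. Other members given by value were chosen after their values were seen. The comparison, its members and the gene lists were chosen with earlier results of these data known. The NF-kappaB and hypoxia motifs were added after results were seen. Promoters come from RefSeq on GRCm38.p6.

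Replicate numbers in the titles were checked as pairs by the correlation of deviations from group means over genes. Same-numbered control replated and proliferating arrays correlated between -0.0275 and 0.194, so they were not taken as pairs. Between control and IFT88KD arrays of a state the correlation was 0.303 to 0.708 in proliferating and 0.254 to 0.452 in replated cells. It was 0.136 to 0.414 between control replated and quiescent arrays. These arrays were blocked by number only in alternative fits, and the main fit has no block.

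Alternatives were the deposited values, median centring, other filters, the mean of probe sets, array weights, a robust variance trend, the compared arrays alone, replicate blocks and leaving out each array.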

Additional observations from a re-analysis of the deposited data

Results flagged for a closer look

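For 19 named genes the change from proliferating to replated cells differed between the siRNA groups in limma's test of that difference, given here as the change in IFT88KD cells minus that in control cells on the log2 scale. It was positive for 14. Genes of mitosis and cytokinesis fell by less in IFT88KD cells, with 2.02 for Ccnb2, 1.99 for Mki67, 1.97 for Bub1, 1.86 for Ube2c, 1.78 for Top2a, 1.57 for Cdk1, 1.53 for Racgap1, 1.41 for Cep55, 1.24 for Cenpa, 1.20 for Cdca3 and 0.97 for Hmmr. The same holds for the methylation factor Uhrf1 at 1.42 and the microtubule regulator Stmn1 at 1.03, and Wnt11 rose by more, at 0.76. The difference was negative for 5. Ephx1 at -1.28, Cd68 at -1.15, Ccl8 at -1.07 and Pmm1 at -0.92 rose in control cells and had a smaller positive change in IFT88KD cells, and Dglucy, at -1.0, fell by 0.62 in control cells and by 1.62 in IFT88KD cells.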

How the results depend on the processing

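On the deposited values 2020 genes were higher in replated cells, 851 of them by 1 log2 or more, and 4721 lower, 2480 by as much, whereas median centring gave 4023 (1899) and 2611 (1127). With the replicate number as a block over all 24 arrays 6733 genes differed, and 6238 over the compared arrays alone; the block changed the call of Myod1 (-0.43, adjusted p = 0.00608 in limma). In the replated and proliferating pair, 2 of 3 arrays correlated best with their own number. Leaving out 1 array gave 6190 to 6413 genes, with 3091 to 3188 higher and 3099 to 3245 lower, 1414 to 1539 and 1331 to 1507 of them by 1 log2 or more. From quiescent to replated cells 5563 genes passed with the block and 5524 without, and among named genes Ncf4 (-0.36, adjusted p from 0.126 to 0.0497) and Psmb7 (-0.74, from 0.0538 to 0.0381) passed. The count of genes whose change differed between siRNA groups was 24 (19 positive) with the mean of probe sets, 99 (81 positive, 18 negative) with array weights and 151 (106 and 45) with the replicate block within each state. Its negative part was 11 with the replicate block over all 24 arrays, 1 with that block over the compared arrays, and 0 in limma with the compared arrays and no block, where 26 genes were called and 464 had an unadjusted p under 0.05. Without 1 array it was 23 to 42 genes, 20 to 35 positive and 3 to 7 negative. Among named differences of division genes, Hmmr and Cenpa lost their call in 12 of 23 settings and Cdca3 in 6. Of 188 named genes, 180 kept the direction and call of their change from proliferating to replated cells in every setting and 5 changed sign. Most were named for being called, without overlap and of 1 sign on the 3 scalings. These scalings are among the settings, so the count of 180 was largely set by that choice. The 5 that changed sign were Jun (-0.089 deposited, -0.053 without control replated replicate 1, and up to 0.45 without another array), Egr1 (-0.19 deposited, -0.095 array weights), Des (0.10 median-centred, 0.37 mean of probe sets), Myog (-0.35 without control proliferating replicate 1, 1.58 without replicate 3) and Fos (-0.12 without control proliferating replicate 3, 1.38 without replicate 1). List medians changed sign for the CDK inhibitors (-0.23 deposited, -0.082 array weights, -0.06 without control replated replicate 1, -0.20 to 0.22 without control proliferating replicates), integrins (-0.060 deposited), Notch and Wnt (-0.10 deposited, -0.14 with a filter at the 60th percentile) and the cilium (0.019 median-centred). The cause of these changes was not tested. Signals under the 40th percentile limit the size of the largest changes.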

Other observations

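Probe sets of a gene did not always give the same size of change. Of 188 genes named, 89 had 148 further probe sets, and 70 of these changed less than the one used, by over 1.5 times, 31 of them with all 6 arrays under the 40th percentile. A change of the other sign was found in 15, of which 4 were above that percentile on 3 or more arrays. Rgs5 gave 3.66 to 7.01 on its other probe sets, Uhrf1 -4.22, Bub1 -1.48 and Cep55 -1.33. Pdgfb gave 1.74, Errfi1 0.76, Tapbp 0.42, Pdgfra 0.91 and Col5a3 1.68. Other probe sets ranged from 1.18 to 4.66 for Vldlr, from 0.20 to 1.81 for Atf4 and from 0.05 to 3.0 for Trdn. They ranged from 0.69 to 1.55 for Itgb5 and from 0.11 to 1.74 for Foxo3. Pxn gave 1.46 and -0.36, and Nop16, which fell on the probe set used, gave 0.35. Further members that fell gave smaller changes of the same sign on another probe set, with -1.11 for Psat1, -0.65 for Phgdh, -0.74 for Srebf2, -0.55 for Gusb and -0.69 for Polr1e.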
